A study of Mus musculus with 6 samples.

Results

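The leukotriene set comprised 6 genes, the enzymes and helper protein that make leukotrienes (Alox5, Alox5ap, Lta4h and Ltc4s) and the receptors for the cysteinyl leukotrienes (Cysltr1 and Cysltr2). They were taken by name, and all 6 were found by Ensembl identifier among the 22962 genes of the deposited expression table. The cells were alveolar macrophages of C57BL/6 mice, the phagocytes of the lung's air spaces, washed out by lavage 2 weeks after saline or bleomycin was given into the trachea. Lavage cells were freed of red cells, left on a culture plate for 30 min, washed and lysed there, so the RNA came from adherent cells and not from a sorted population. Bleomycin damages DNA, and lungs exposed to it scar, which makes it a standard model of pulmonary fibrosis. Saline replicates 1, 2 and 3 were compared with bleomycin replicates 1, 2 and 5, so each group had 3 libraries, all of 1 strain with no genetic alteration named. The sources used here give neither age nor sex, nor whether each library came from its own mouse. Hence p-values measure only how far these libraries spread, and some of that spread may be technical.

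Leukotrienes are lipid mediators made from arachidonic acid, which a phospholipase releases from membranes. With the help of the activating protein encoded by Alox5ap, 5-lipoxygenase turns arachidonic acid into the unstable leukotriene A4, from which the pathway branches. Leukotriene A4 hydrolase makes leukotriene B4, which attracts neutrophils and other leukocytes, while leukotriene C4 synthase joins it to glutathione to make leukotriene C4, the parent of the cysteinyl leukotrienes that constrict airways and make vessels leak. Alveolar macrophages are a known source of leukotrienes in the lung. The question posed by the comparison was which of these steps differed in transcript level between cells from saline and bleomycin lungs.

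The direction of change differed between members, and a difference between synthesis genes and receptors as groups was not tested. Alox5 fell 1.59-fold after bleomycin, the sole member whose change passed the test. Lta4h was lower and Cysltr1 higher in every bleomycin library than in any saline library, but both missed the threshold. Ltc4s was lower in 2 of 3 bleomycin libraries, Alox5ap showed no change beyond the spread between libraries, and Cysltr2 was close to the limit of detection. All values are normalized read counts, that is, reads divided by 1 size factor per library, and 3 reads corresponded to a value of 2.59 to 3.3. The libraries held 27654799 to 37147983 reads. Bleomycin replicates 1 and 2 and saline replicates 2 and 3 each stood apart from their groups in some markers of other cells. These are given with the values below. Results whose call turns on one of these libraries are also given without it.

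The promoters of Alox5 and Lta4h are shown because these are the synthesis genes that were lower in all 3 bleomycin libraries. Of the 6 members, 4 had a promoter entry in the RefSeq table, which is on GRCm38.p6. Each sequence is the 250 bases before the RefSeq start, read 5′ to 3′ on the gene's strand, and capitals mark the motifs searched for on both strands, namely the GC box GGGCGG, the CCAAT box CCAAT, the TATA box TATAAA and the PU.1 core GAGGAA. PU.1 is a transcription factor of the macrophage lineage.
Alox5, chr6:116461179-116461428, minus strand: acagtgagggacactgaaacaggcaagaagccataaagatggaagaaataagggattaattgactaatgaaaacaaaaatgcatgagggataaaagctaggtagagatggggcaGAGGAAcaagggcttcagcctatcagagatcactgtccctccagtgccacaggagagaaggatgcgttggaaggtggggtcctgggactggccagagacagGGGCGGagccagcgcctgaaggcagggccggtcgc
Lta4h, chr10:93453146-93453395, plus strand: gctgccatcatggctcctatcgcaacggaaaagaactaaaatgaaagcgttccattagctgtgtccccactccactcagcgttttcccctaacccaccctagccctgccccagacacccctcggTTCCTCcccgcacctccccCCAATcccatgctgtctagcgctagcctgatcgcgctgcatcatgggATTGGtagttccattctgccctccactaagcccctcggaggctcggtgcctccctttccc

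The Alox5 window held 1 GC box, 35 bases before the start, and 1 PU.1 core, 136 bases before it. The Lta4h window held a CCAAT box on the gene's strand at 107 bases and another on the opposite strand at 60 bases, with a PU.1 core on the opposite strand at 126 bases. No marked motifs overlapped. Among 32851 promoter windows of 27025 genes, 32.7% held a GC box, 33.9% a CCAAT box, 12.4% a TATA box and 23.3% a PU.1 core, so the matches are common ones. They describe these letters only and say nothing of binding.

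Levels could be compared between genes only per length, as normalized read count per kilobase of exon. In saline libraries the order was Alox5ap with 3664 ± 690 (SD, n = 3), Alox5 with 2395 ± 378, Ltc4s with 1518 ± 325, Lta4h with 734 ± 23.8, Cysltr1 with 22.4 ± 2.18 and Cysltr2 with 0.126. The ranges of neighbours in this order did not overlap. The synthesis genes were thus abundant transcripts, with 97.0% of 13487 genes lying below Alox5ap and 85.0% below Lta4h, whereas 22.6% lay below Cysltr1. In bleomycin libraries the order of the means was the same, but the per-kilobase ranges of Alox5 and Ltc4s overlapped, with 1494 ± 97.8 for Alox5 and 1020 ± 449 for Ltc4s.

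**Figure D1:**
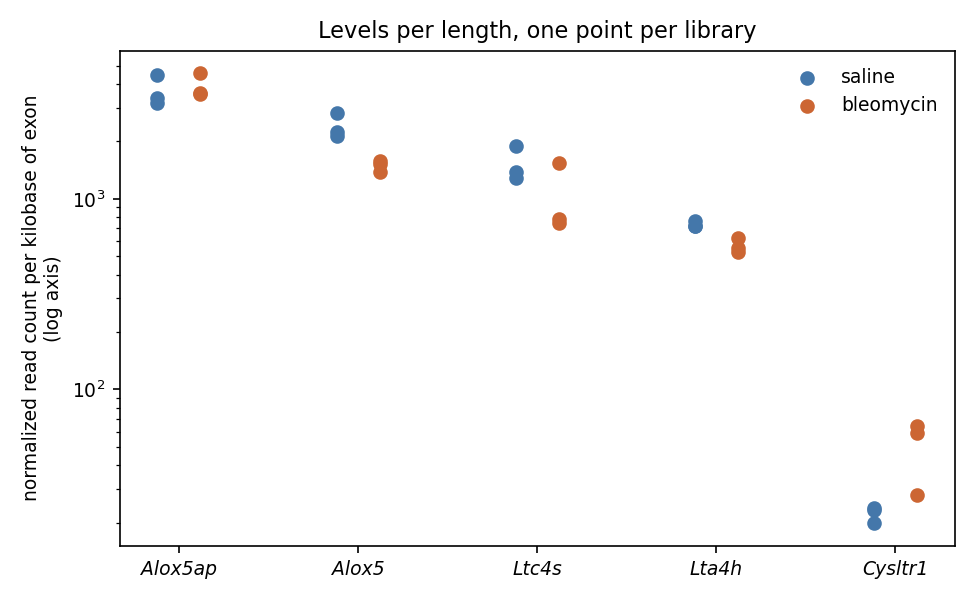
Normalized read count per kilobase of exon (log axis) for 5 members, with 1 point per library, saline in blue and bleomycin in orange. The 4 synthesis genes lie far above Cysltr1, and the Alox5 and Ltc4s points overlap only after bleomycin; Cysltr2, with 0.126 in saline, is off the scale.

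Alox5 encodes 5-lipoxygenase, the enzyme that commits arachidonic acid to leukotrienes (ENSMUSG00000025701, GRCm38 chromosome 6, 116410077 to 116461178, minus strand). Saline replicates 1 to 3 had normalized read counts of 11606, 9171 and 8719, against 6269, 6453 and 5684 for bleomycin replicates 1, 2 and 5. All 3 bleomycin libraries lay below all 3 saline libraries, and saline replicate 1 was the highest. The means were 9832 ± 1553 and 6135 ± 402 (SD, n = 3 each), a log2 change of -0.67 ± 0.13 (SE; 95% interval -0.97 to -0.37), which limma called lower at an adjusted p of 0.0115. Here and below, log2 changes are bleomycin against saline on the log2(value + 1) scale, p-values are adjusted over all 13512 genes tested, and a gene is called at an adjusted p under 0.05. By the same rule 3.9% of all tested genes were called lower and 9.76% higher. Leaving out bleomycin replicate 2 gave a change of -0.71 for Alox5, called at a limma adjusted p of 0.0485. Without bleomycin replicate 5 the change was -0.62 and no longer called (limma adjusted p = 0.0758). Over 18 alternatives the adjusted p ranged from 0.000168 by DESeq2 to 0.121 by limma, and 16 kept the call. Because the RNA is from a mixture of adherent cells, fewer cells of a type and less RNA per cell cannot be told apart for this or any other gene.

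Alox5ap encodes the membrane protein that presents arachidonic acid to 5-lipoxygenase (ENSMUSG00000060063, chromosome 5, 149264767 to 149288153, plus strand). Saline replicates 1 to 3 had normalized read counts of 4784, 4503 and 6323, against 6468, 5085 and 5023 for bleomycin replicates 1, 2 and 5. The groups overlapped, with 1 high library in each, saline replicate 3 and bleomycin replicate 1. The log2 change was 0.09 ± 0.16 with a 95% interval of -0.27 to 0.46 (limma adjusted p = 0.789), so a fall as large as that of Alox5 lies outside the interval. Its sign was not stable, being positive in 15 and negative in 3 of 18 alternatives. Of its exon bases, 13.3% are shared with Gm19719 on the opposite strand, which had values of 2.7 to 16.3.

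The partners of the first step were also compared within each library, where the scaling of libraries cancels. These values are not corrected for length, so the percentages compare libraries and not the levels of the genes. Per kilobase of exon, Alox5ap lay above Alox5 in both groups. The Alox5ap value amounted to 41.2%, 49.1% and 72.5% of the Alox5 value for saline replicates 1 to 3, against 103%, 78.8% and 88.4% for bleomycin replicates 1, 2 and 5. The groups did not overlap. The mean log2 ratio was -0.92 ± 0.42 in saline and -0.16 ± 0.20 in bleomycin libraries (SD, n = 3 each), a difference of 0.76. The exact two-sided permutation test gave p = 0.1, the smallest that 3 against 3 libraries allow, and 0.3 after adjustment over the 3 ratios examined.

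**Figure D2:**
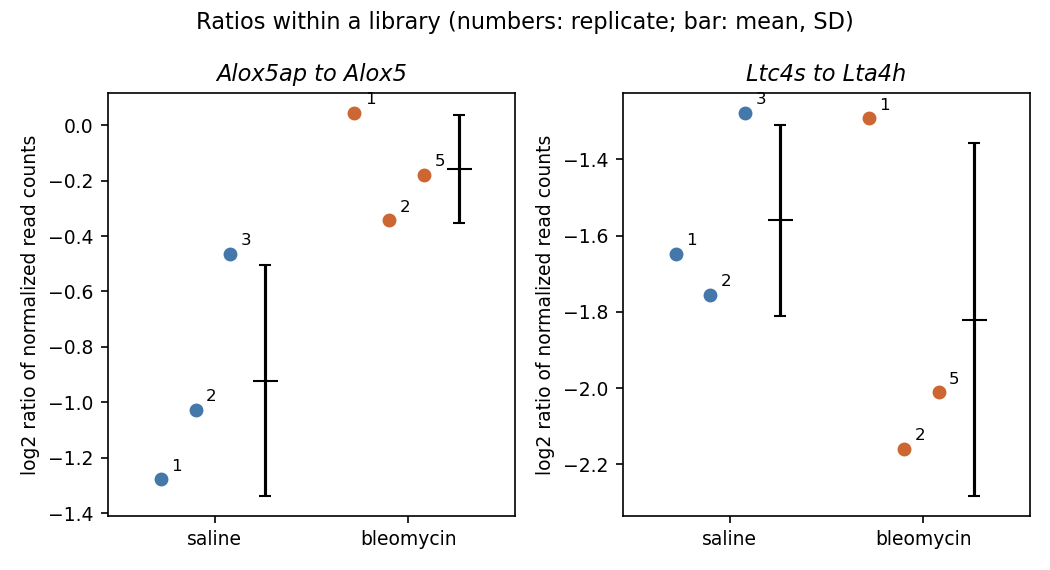
Log2 ratio of normalized read counts within a library, Alox5ap to Alox5 on the left and Ltc4s to Lta4h on the right, with replicate numbers beside the points and bars for mean and SD of 3 libraries. The left-hand ratio lies higher in every bleomycin library, and on the right bleomycin replicate 1 lies among the saline libraries. The counts are not corrected for length.

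Lta4h encodes the hydrolase that makes leukotriene B4 (ENSMUSG00000015889, chromosome 10, 93453411 to 93484875, plus strand). Saline replicates 1 to 3 had normalized read counts of 4393, 4393 and 4644, against 3820, 3361 and 3188 for bleomycin replicates 1, 2 and 5. The groups did not overlap, and bleomycin replicate 1 lay nearest to saline. The means were 4476 ± 145 and 3457 ± 327, a log2 change of -0.38 ± 0.11 (95% interval -0.63 to -0.13) that missed the threshold at a limma adjusted p of 0.0552. Without bleomycin replicate 1 the change was -0.45 and was called (limma adjusted p = 0.0261). With no library left out, DESeq2 on recovered reads called it as well (adjusted p = 0.0255), while edgeR did not (adjusted p = 0.0663). Over 18 alternatives the adjusted p ranged from 0.0255 by DESeq2 to 0.767 by limma, and 3 gave a call.

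Ltc4s encodes leukotriene C4 synthase, the first enzyme of the cysteinyl branch (ENSMUSG00000020377, chromosome 11, 50236461 to 50238616, minus strand). Saline replicates 1 to 3 had normalized read counts of 1402, 1302 and 1915, against 1560, 753 and 791 for bleomycin replicates 1, 2 and 5. Bleomycin replicates 2 and 5 lay well below every saline library, but bleomycin replicate 1 lay within the saline range, so the groups overlapped. The log2 change was -0.64 ± 0.28 (95% interval -1.28 to 0.00), with a limma adjusted p of 0.195. Without bleomycin replicate 1 it was -0.97 and was called (limma adjusted p = 0.0107, in a range of 0.00506 to 0.775 over 18 alternatives, of which 2 gave a call). Ltc4s shares 26.4% of its exon bases with Gm26542 on the opposite strand, whose values were 103, 92.4 and 138 for saline, against 91.6, 69.2 and 52.6 for bleomycin libraries.

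At the branch point, values were again not corrected for length, and per kilobase of exon Ltc4s lay above Lta4h in both groups. The Ltc4s value amounted to 31.9%, 29.6% and 41.2% of the Lta4h value for saline replicates 1 to 3. For bleomycin replicates 1, 2 and 5 it was 40.8%, 22.4% and 24.8%. Bleomycin replicates 2 and 5 were below the saline range and bleomycin replicate 1 was inside it. The mean log2 ratio was -1.56 ± 0.25 in saline and -1.82 ± 0.46 in bleomycin libraries, a difference of -0.26 (exact two-sided permutation p = 0.4, adjusted p = 0.4). Its size rested on single libraries, at -0.52 without bleomycin replicate 1, -0.09 without bleomycin replicate 2, -0.17 without bleomycin replicate 5 and -0.12 without saline replicate 3.

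Cysltr1 encodes the receptor with the highest affinity for leukotriene D4 (ENSMUSG00000052821, chromosome X, 106574346 to 106603679, minus strand). Saline replicates 1 to 3 had normalized read counts of 120, 102 and 123, against 144, 332 and 303 for bleomycin replicates 1, 2 and 5. The groups did not overlap, but bleomycin replicate 1 was close to saline while replicates 2 and 5 were far above it. The means were 115 ± 11.2 and 259 ± 101, a log2 change of 1.08 ± 0.31 (95% interval 0.37 to 1.80), or 2.12-fold, at a limma adjusted p of 0.0558. Without bleomycin replicate 1 it was 1.46 and was called (limma adjusted p = 0.00269, in a range of 0.00269 to 0.235 over 18 alternatives). The count tests on recovered reads called it as well, with an adjusted p of 0.0396 by edgeR and 0.00332 by DESeq2, so the call depends on the test.

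Cysltr2 encodes the other cysteinyl leukotriene receptor (ENSMUSG00000033470, chromosome 14, 73025603 to 73049114, minus strand). Saline replicates 1 to 3 had normalized read counts of 0, 1.09 and 0, against 1.80, 6.59 and 19.0 for bleomycin replicates 1, 2 and 5. Every bleomycin library was above every saline library, but these values stand for 1 read over the saline libraries and 30 reads over the bleomycin libraries, 22 of them in replicate 5. The ratio of the summed reads, corrected for size factors, was 27.2 with a 95% counting interval of 4.52 to 1108, which covers counting error only and not the spread between libraries. The gene was below the minimum for testing, a value of 10 in at least 3 libraries. It stayed a minor transcript beside Cysltr1. Not corrected for length, it was at 0% to 1.06% of the Cysltr1 value in saline and 1.25% to 6.27% in bleomycin libraries. The exact two-sided permutation test on the log2 ratio of values with 1 added gave p = 0.2 (adjusted p = 0.3). The difference in that log2 ratio was 1.47, and 0.92 without bleomycin replicate 5.

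**Figure D3:**
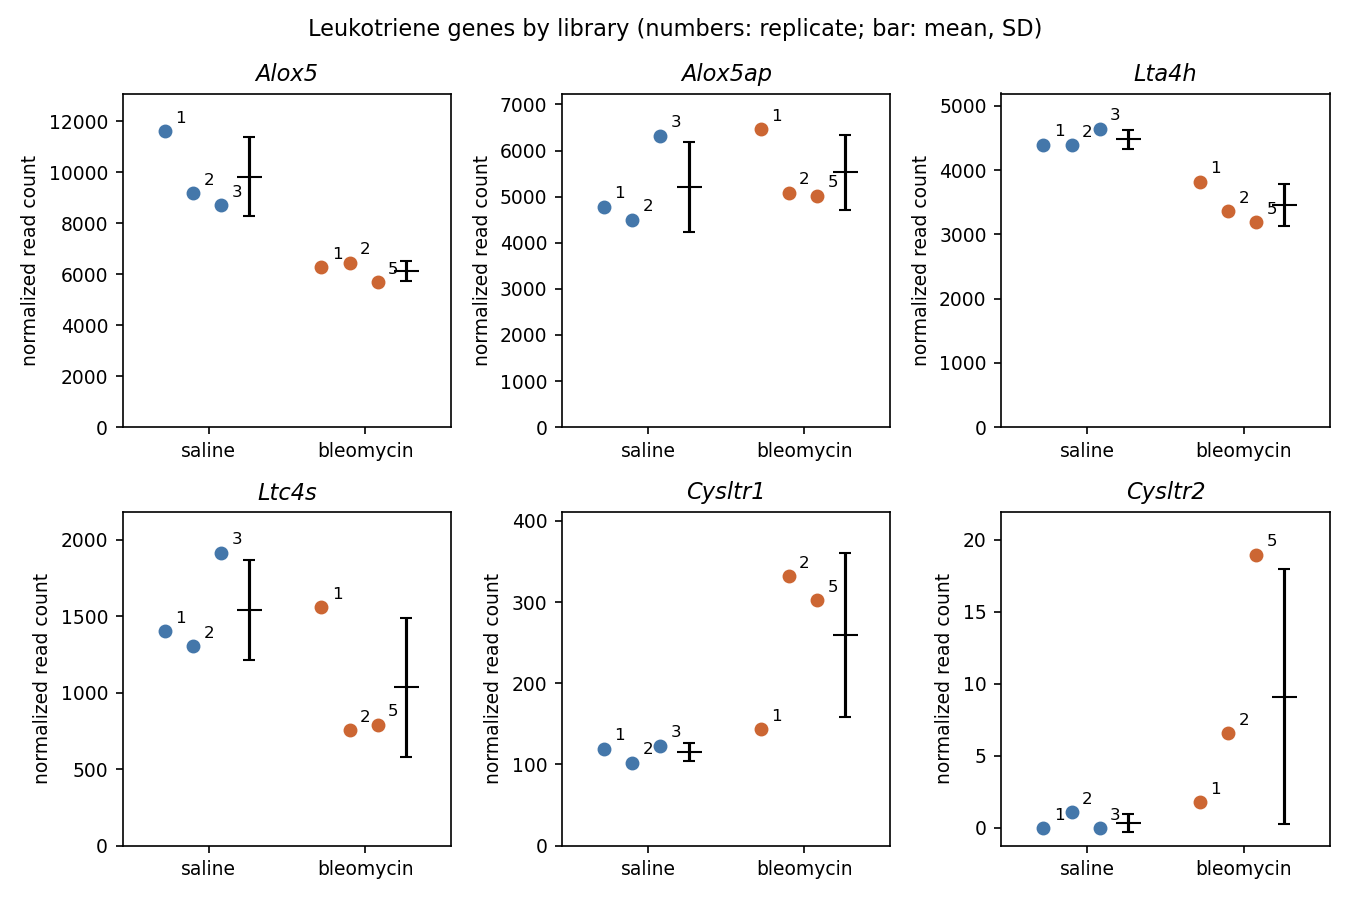
Normalized read count of the 6 genes in each library (linear axes, replicate numbers beside the points, bars for mean and SD of 3 libraries). Alox5, Lta4h and both receptors show no overlap between groups, as did 17.2% (higher) and 13.6% (lower) of all tested genes. For Cysltr2 this rests on 2 reads in bleomycin replicate 1 against 1 in saline replicate 2. Bleomycin replicate 1 sits within the saline range for Ltc4s and near it for Cysltr1.

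Counted together, 5 of the 6 members passed the filter on low values. By limma 0 were called higher, 1 was called lower and 4 were not called. Without adjustment, 1 was higher and 2 were lower at p under 0.05. On recovered reads edgeR called 1 higher and 1 lower, and DESeq2 1 higher and 2 lower. Over all 13512 tested genes limma called 9.76% higher and 3.9% lower. Of the same genes edgeR called 1303 higher and 518 lower, and DESeq2 1544 higher and 769 lower. The share over all genes without adjustment was not computed. The median log2 change of the 5 was -0.38, against -0.01 over all 13512 tested genes. Groups did not overlap for 3 of the 5, with 1 member higher and 2 lower, where 17.2% of all tested genes were higher and 13.6% lower without overlap.

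Bleomycin replicate 1 lay nearest to saline for Lta4h, Ltc4s and both receptors but not for Alox5, so the members did not share 1 pattern among the bleomycin libraries. Markers of other cells differed between those libraries too. The summed value of 10 markers of monocytes and monocyte-derived macrophages was 8404 to 11207 in saline libraries. It was 135650 in bleomycin replicate 1, and 223930 and 247570 in replicates 2 and 5. By limma 9 of the 10 rose, but Apoe alone made up 79.6% of the sum over all libraries, Cd14 9.75% and C1qa 7.25%. The 12 markers of resident alveolar macrophages summed to 569620 to 702380 in saline and to 421930, 352220 and 313090 in bleomycin replicates 1, 2 and 5. By limma 8 of the 12 fell, and Chil3 made up 62.0% of the sum over all libraries. Siglecf, the defining surface lectin of these cells in mice, was present in every library, at 16187, 12651 and 14902 for saline, against 8182, 7729 and 7228 for bleomycin libraries. Of the 5 epithelial markers listed, 2 rose and 1 fell by limma. Epcam and Cdh1 made up 55.4% and 36.6% of their sum over all libraries, and which cells these reads came from was not tested. Cdh1 was at 1544 to 2185 in saline and 1755 to 2136 in bleomycin libraries. The surfactant genes rose, Sftpc from 36.9 to 46.1 in saline to 206 to 479 in bleomycin libraries and Sftpb from 7.61 to 20.2 in saline to 56.6 to 240 in bleomycin libraries (limma adjusted p = 0.000625 and 0.00712), while Epcam fell from 3983 to 4871 in saline to 1154 to 1966 in bleomycin libraries (limma adjusted p = 0.00135). The 5 fibroblast markers summed to 35.3, 58.7 and 321 over saline replicates 1 to 3, against 849, 214 and 668 for bleomycin replicates 1, 2 and 5, and 2 of the 5 rose by limma. Saline replicate 3 was the highest of its group, with Col1a1 at 200.4 against 19.6 and 34.8. Bleomycin replicate 2 was the lowest of its group, with Col1a1 at 51.6 against 419.5 and 275. The part of these cell types in the changes of the leukotriene genes was not tested.

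Some other leukocytes are known for leukotriene synthesis or its receptors, and their markers were read beside the members. The 7 neutrophil markers in the table summed to 2552 to 3860 in saline and 5671 to 6596 in bleomycin libraries, and 3 of the 5 tested rose. Mmp8 and Csf3r made up 44.8% and 25.8% of this sum, while the granule gene Camp did not pass 1.80. S100a9 was at 503 in saline replicate 2, against 4.90 and 7.42 in the other saline libraries. For eosinophils, Ccr3 and Il5ra summed to at most 5.88. For mast cells, the 5 markers in the table summed to 54.9, 327 and 44.5 for saline, against 159, 304 and 351 for bleomycin libraries, nearly all from Kit and Hdc, with Hdc at 305 in saline replicate 2, and the protease gene Cpa3 did not pass 4.35. For basophils, Gata2 did not pass 7.69, and the other listed markers were not analysed here. The 4 B cell markers summed to 6.36 to 8.83 in saline, and to 33.2, 416 and 263 in bleomycin replicates 1, 2 and 5. The 6 T cell markers summed to 18.5 to 32.4 in saline, and to 170, 481 and 555 in the same bleomycin libraries. The 6 dendritic cell markers summed to 285 to 631 in saline, and to 989, 2048 and 2126 in bleomycin libraries. The B cell, T cell and dendritic cell sums were lowest among bleomycin libraries in replicate 1, as was Cysltr1. The same held for the sums of monocyte and monocyte-derived macrophage, neutrophil and mast cell markers. It also held for eosinophil, basophil and natural killer cell markers, which were near the floor. The 3 natural killer cell markers in the table summed to 1.96 to 8.48 in saline, and to 8.98, 14.3 and 12.1 in bleomycin libraries. Resident alveolar macrophage, epithelial and fibroblast sums were instead highest among bleomycin libraries in replicate 1. The part of any of these cells in the Cysltr1 values was not tested.

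The rest of the pathway was read from a list of 25 genes, of which 20 were in the table and 14 passed the filter on low values. By limma 2 of the 14 were called higher, 0 lower and 12 neither, with a median log2 change of 0.11. Without adjustment 2 were higher and 1 lower by limma, but the share over all genes was not computed, so these 2 counts have no background. On recovered reads edgeR called 1 higher and 0 lower, and DESeq2 2 higher and 0 lower. Of all tested genes, limma called 9.76% higher and 3.9% lower. In number, edgeR called 1303 genes higher and 518 lower, and DESeq2 1544 and 769. Groups did not overlap for 3 higher and 1 lower of the 14, where 17.2% of all tested genes were higher and 13.6% lower without overlap, so these counts lie near those over all genes.

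Upstream of the members, Pla2g4a, the phospholipase that releases arachidonic acid, had a log2 change of -0.14 ± 0.15 (limma adjusted p = 0.651). The 5-lipoxygenase binding partner Cotl1 and the kinase Mapkapk2, which phosphorylates 5-lipoxygenase, had log2 changes of -0.01 ± 0.14 and 0.02 ± 0.13 (limma adjusted p = 0.984 and 0.940). Among other lipoxygenases, Aloxe3 measured 737, 681 and 599 for saline, against 566, 544 and 503 for bleomycin libraries, without overlap, at a log2 change of -0.32 ± 0.14 and a limma adjusted p of 0.183. Alox15, which serves 12- and 15-lipoxygenase activity in mouse peritoneal macrophages, did not pass 4.35 in any library, and Alox12 and Alox8 did not pass 5.49 and 2.94. Of the lipoxygenases measured, Alox5 was therefore the one with by far the most reads in these cells.

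Mgst2 and Mgst3 belong to the same membrane protein family as Ltc4s and Alox5ap, and their human products can make leukotriene C4 in vitro. For Mgst3, saline replicates 1 to 3 had normalized read counts of 4134, 3357 and 4533, against 3992, 2556 and 2407 for bleomycin replicates 1, 2 and 5. As for Ltc4s, bleomycin replicate 1 lay in the saline range and replicates 2 and 5 lay below it. The log2 change was -0.45 ± 0.20 (limma adjusted p = 0.206), and -0.68 without bleomycin replicate 1, which was called (limma adjusted p = 0.0200, in a range of 0.00339 to 0.867 over 18 alternatives). Mgst2 measured 207 ± 43.6 in saline and 258 ± 63.5 in bleomycin libraries, a log2 change of 0.31 ± 0.23 (limma adjusted p = 0.470).

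Leukotriene C4 leaves the cell through transporters and is then trimmed to leukotrienes D4 and E4. The transporter genes Abcc1 and Abcc4 had log2 changes of -0.30 ± 0.19 and 0.26 ± 0.18 (limma adjusted p = 0.402 and 0.441). Ggt5, a gamma-glutamyl transferase that converts leukotriene C4 to D4, rose from 249, 286 and 264 in saline to 406, 408 and 399 in bleomycin libraries. The bleomycin values lay close together and above all saline values. Its log2 change was 0.60 ± 0.14, or 1.52-fold (limma adjusted p = 0.0248). Over 18 alternatives the adjusted p ranged from 0.00258 by DESeq2 to 0.397 by limma, and 13 kept the call. The call was lost without saline replicate 1, saline replicate 3, bleomycin replicate 2 or bleomycin replicate 5, with limma adjusted p-values of 0.0703, 0.0645, 0.141 and 0.128. The related Ggt1 stayed between 4.90 and 15.2. Dpep2, whose product converts leukotriene D4 to E4, and the related dipeptidase gene Dpep3 had log2 changes of 0.19 ± 0.14 and 0.56 ± 0.25 (limma adjusted p = 0.467 and 0.202), and both share exon bases with other genes.

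On the leukotriene B4 side, Ltb4r1, the high-affinity receptor, measured 13.7, 8.69 and 19.1 for saline, against 36.8, 38.5 and 31.9 for bleomycin libraries. The groups did not overlap, at 8 to 18 reads per saline library. Its log2 change was 1.37 ± 0.38 with a limma adjusted p of 0.0497, just inside the threshold. The call also depended on the filter on low values. With no filter the change was the same but was not called (limma adjusted p = 0.0860), and the higher minimum tried left the gene untested. In 5 of 17 alternatives the call was kept, and without bleomycin replicate 2 the limma adjusted p was 0.218, the highest of a range that began at 0.0297. Leaving out saline replicate 1, saline replicate 2, bleomycin replicate 1 or bleomycin replicate 5 also ended the call (limma adjusted p = 0.0935, 0.105, 0.110 and 0.164). Ltb4r2, the low-affinity receptor, had 1 to 12 reads per library and was below the minimum for testing. Of the genes that break down leukotriene B4, Ptgr1 had a log2 change of 0.35 ± 0.22 (limma adjusted p = 0.392) and Cyp4f18 one of 0.00 ± 0.14 (limma adjusted p = 0.993).

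**Figure D4:**
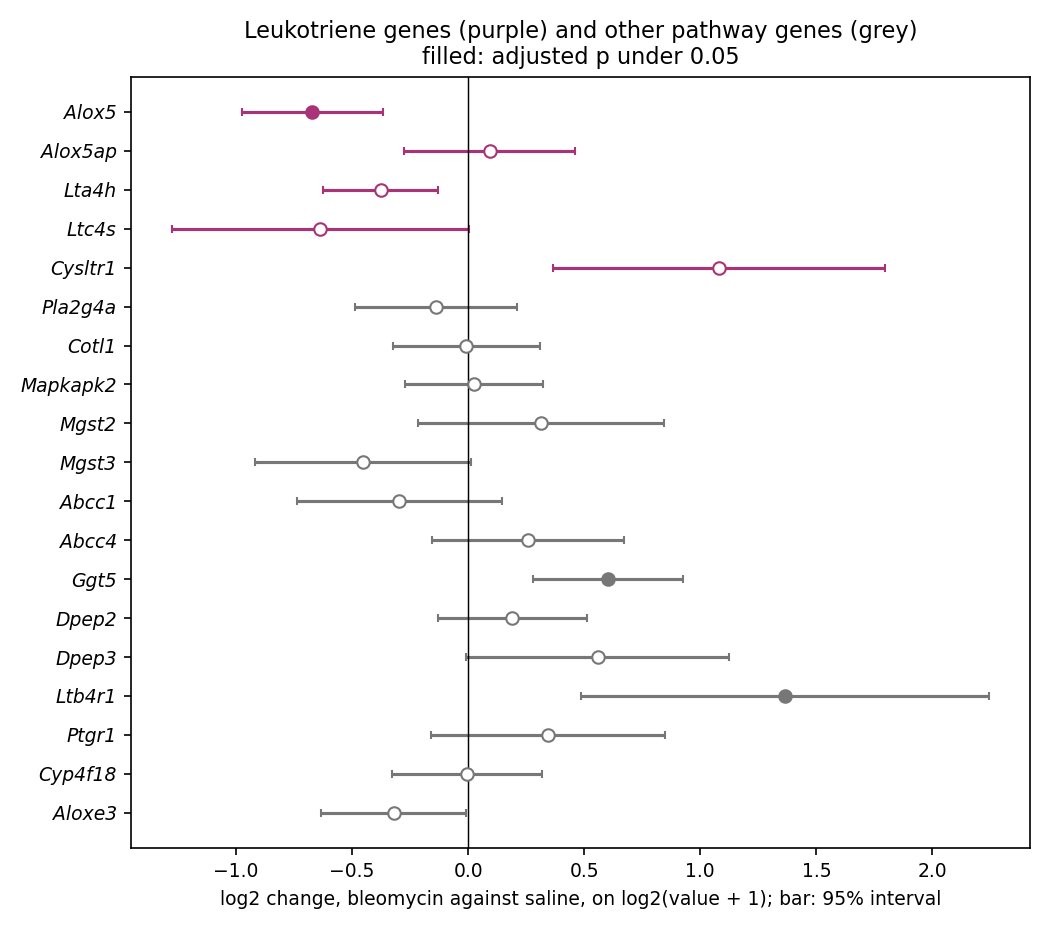
Log2 change of bleomycin against saline libraries for the 5 tested members (purple) and the 14 tested genes of the rest of the pathway (grey), with 95% intervals from limma and filled points at an adjusted p under 0.05. Alox5 at -0.67, Ggt5 at 0.60 and Ltb4r1 at 1.37 are the filled points.

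Genes with the profile most like each member over the 6 libraries were found by Euclidean distance between mean-centred log2 values, among 9652 tested genes with a mean of at least 100. For Alox5 the nearest were Iffo1, Adamts2 and Phlpp2 at distances of 0.202, 0.202 and 0.206. For Alox5ap the nearest were Lgals3, Tmem9b and Gin1 at 0.0818, 0.101 and 0.106. For Lta4h they were Ak8, Ulk3 and Yif1a at 0.081, 0.092 and 0.105, and for Ltc4s they were Fcgrt, Rac3 and Cox6b2 at 0.246, 0.313 and 0.349. For Cysltr1 they were Cd180, Gpr35 and H2-T24 at 0.230, 0.298 and 0.339. No member was among the 3 nearest of another.

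The direction of each tested member except Alox5ap was the same under all 18 alternatives, while the calls were not. Alox5 was called lower in 16 of them, Cysltr1 higher in 4, Lta4h lower in 3 and Ltc4s lower in 2. With saline replicate 2 and bleomycin replicate 1 both left out, an alternative chosen after seeing the data, the log2 changes were -0.46 for Lta4h, -1.09 for Ltc4s and 1.38 for Cysltr1, all called (limma adjusted p = 0.0312, 0.00506 and 0.00319, within the ranges given above). Of all genes called, 71.5% were higher after bleomycin, and 59.7% were with quantile normalization.

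**Figure D5:**
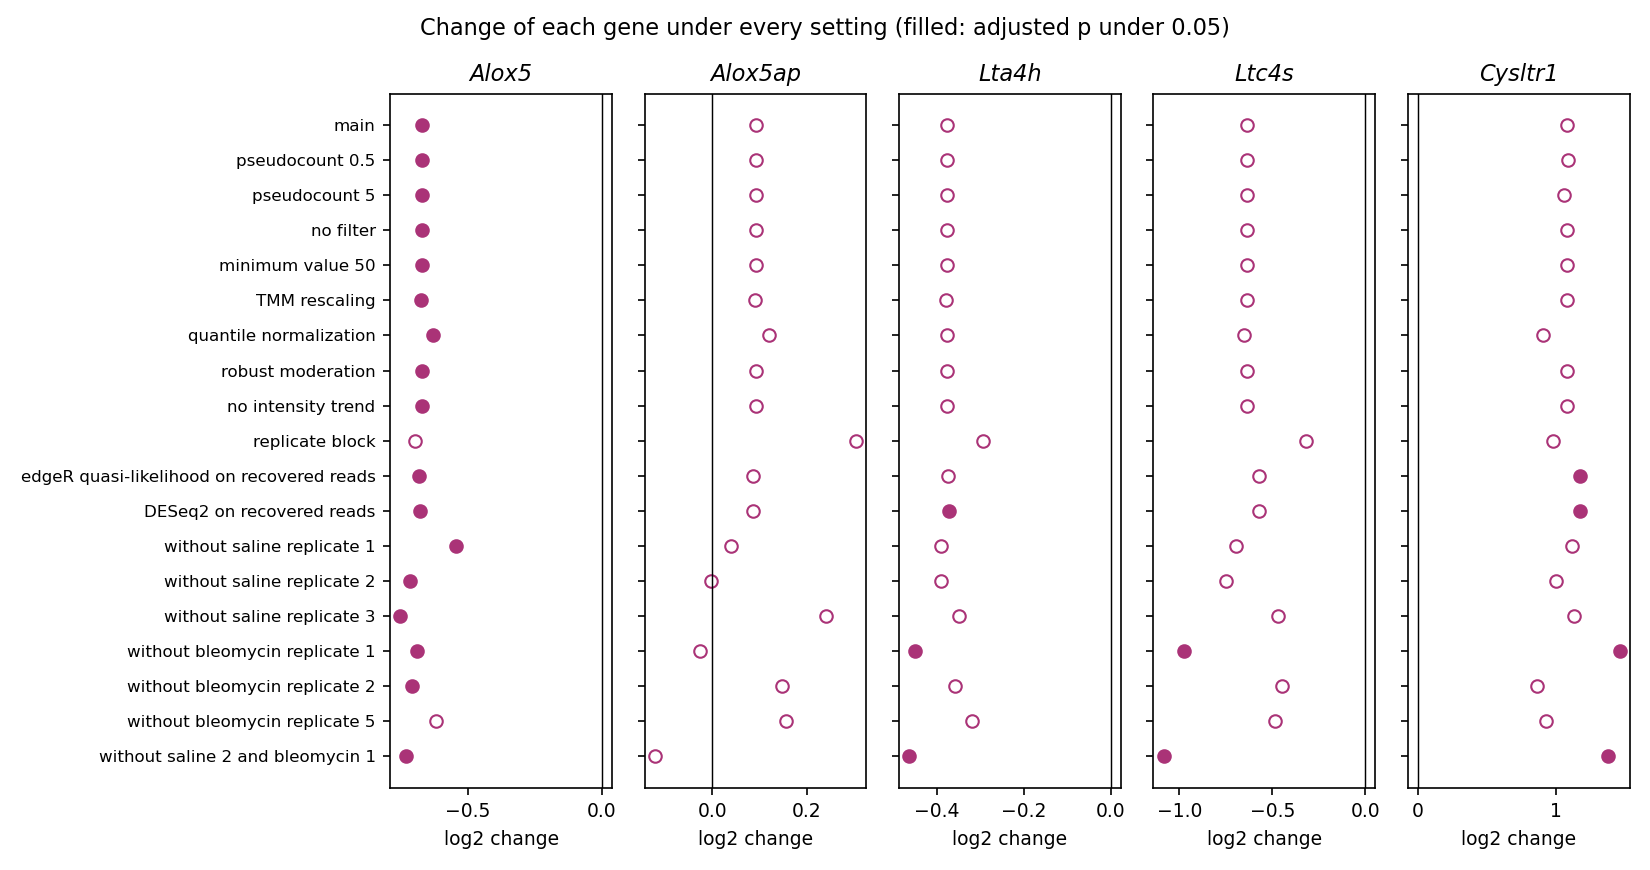
Log2 change of each tested member under the fit reported and 18 alternatives (vertical axis), with filled points at an adjusted p under 0.05 and a line at 0. The Alox5 points stay between -0.75 and -0.55 and are filled in 16 alternatives, and the Alox5ap points lie on both sides of 0.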

How the data were processed

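RNA sequencing covered 3 saline and 3 bleomycin libraries, assigned by the labels' treatment. The submitters' processing notes name DESeq2, HTSeq 0.6.0, STAR 2.5.2b and bcl2fastq 2.18.0.12 with build mm10 and do not state their roles or the strand setting. What the authors deposited is a normalized signal. Within 0.05 of a read, 100% of them were whole read counts over a size factor common to the library.

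From these, limma 3.58.1 (R 4.3.3, intensity trend, two-sided) compared log2(value + 1) between groups, with Benjamini-Hochberg adjustment. Genes needed 10 or more in at least 3 libraries. This scale understates changes of low genes. Other settings were a pseudocount of 0.5 or 5, a minimum of 50 or none, TMM or quantile scaling, robust variances, no trend, a replicate block, leaving out libraries, and, on recovered reads, DESeq2 1.42.0 or edgeR 4.0.16 quasi-likelihood. The code of the fits was checked on simulated counts, with as many genes raised as lowered and the same dispersion (spread between libraries) for every gene. That setting is simpler than these data, so the check says nothing of the error in the fits reported.

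The members and lists were chosen with earlier results of these data known. All members, each other pathway gene called or needed for a step, and the 3 nearest profiles per member are named. Of 25 pathway genes, Dpep1, Oxgr1, Gpr17, Alox12b and Alox12e were not analysed here. Gene positions and exon lengths are on GRCm38, to which mm10 corresponds, and no libraries were near-duplicates. Between replicates of a group, the chi-square of reads over its degrees of freedom was 18.5 for bleomycin replicates 2 and 5. For all other pairs it was 50.3 to 92.1. Fits without bleomycin replicate 1 rest on that closest pair, so their bleomycin spread is that of the 2 most similar libraries.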

Additional observations from a re-analysis of the deposited data

How the results depend on the processing

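Of 18 alternatives, members called higher numbered 1 by edgeR, by DESeq2 and with saline replicate 2 and bleomycin replicate 1 left out together (chosen after seeing the data), and 0 to 1 when leaving out 1 library. Members called lower numbered 2 by DESeq2, 3 with that pair left out, 0 with the replicate block and 0 to 3 when leaving out 1 library. Of all tested genes DESeq2 called 769 lower and edgeR 518, and with that pair left out 1741 were called in either direction. Counts by direction over all genes were not computed for the pair, the block or leaving out 1 library. With the replicate block, which rests on replicates 1 and 2 of each group, Alox5 changed by -0.70 (adjusted p = 0.121) and 1147 genes were called against 1846. Deviations from the group means had correlations of -0.201 and 0.024 between same-numbered libraries, against -0.169 to 0.229 between other pairs. With 3 libraries per group, these values cannot decide whether equal numbers mark pairs, and the labels give no batch. Leaving out 1 library gave 664 to 1675 called genes, and log2 changes of -0.75 to -0.55 for Alox5, -0.45 to -0.32 for Lta4h, -0.97 to -0.45 for Ltc4s and 0.86 to 1.46 for Cysltr1. The Cysltr1 change was 1.17 by edgeR and 1.17 by DESeq2, the Lta4h change was -0.37 by DESeq2, and with the pair left out the changes were -0.46 for Lta4h, -1.09 for Ltc4s and 1.38 for Cysltr1. Other pathway genes called higher numbered 1 with a pseudocount of 0.5, no filter, a minimum of 50, quantile normalization, robust variances, edgeR or the pair left out, 0 with the block, and 0 to 1 when leaving out 1 library. In the order named up to the pair, all genes called in either direction numbered 1813, 2038, 1353, 1866, 1836, 1821 and 1741. Those called lower numbered 1 with the pair left out and 0 to 1 when leaving out 1 library. The cause of these changes was not tested. Leaving out 1 library, the differences in log2 ratio kept their sign, at 0.59 to 0.99 for Alox5ap to Alox5, -0.52 to -0.09 for Ltc4s to Lta4h and 0.92 to 1.91 for Cysltr2 to Cysltr1. Depth limits Cysltr2 and Ltb4r1, which rest on 1 and 40 reads over the saline libraries.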
